A study of Arabidopsis thaliana with 18 samples.

Results

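Seedlings of the bru1 mutant were compared with wild-type Col seedlings 4 h after a heat acclimation treatment, using every array labelled bru1 4 h and every array labelled Col 4 h. These were 6 of the 18 arrays of a series on heat stress memory in Arabidopsis thaliana, 3 for each genotype, and the log2 difference between the group means was taken for each of 22746 probe sets. Seedlings were 4 d old, raised on 1% glucose medium in long days (16 h light), and kept at 23 °C in the light and 21 °C in the dark period. The acclimated groups, Col 4 h and bru1 4 h, were heated for 1 h at 37 °C, rested for 1.5 h at 23 °C and heated again for 45 min at 44 °C, starting 6 h after dawn. Untreated controls of both genotypes and seedlings of both genotypes taken 52 h after acclimation, also 3 arrays each, share the estimate of the spread with the 4 h arrays in one fit and set the 4 h difference in context. The labels give the mutant as bru1 without naming the allele, and they describe the replicates as biological without saying how many seedlings each pooled.

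BRU1, also called TONSOKU or MGOUN3, is a plant nuclear protein required for the stable passage of chromatin states through cell division, and mutants are known for disturbed meristems, sensitivity to DNA damage and loosened gene silencing. Heat acclimation activates heat shock factors, which switch on chaperone genes within minutes, and a small set of these genes, among them HSA32 and genes of small heat shock proteins, stays on for days and is used as a readout of heat stress memory. No probe set was matched to BRU1 in the annotation used, so the mutated gene's own transcript was not analysed here and the genotype labels could not be checked with it. Of the 22746 probe sets, 13502 were matched to a single gene with a locus, which gave 13344 genes at 1 probe set each, and only these are named.

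The arrays were alike in overall level, with medians between 6.49 and 6.55 on the log2 scale at 4 h, and each 4 h array correlated with the others of its group at 0.992 to 0.995. Replicate 2 of Col 4 h nonetheless lay closer to bru1 than the other Col arrays did for several gene groups, which are given below with and without it. The array's 25S rRNA control read 12.87, 13.19 and 12.40 in Col and 13.24, 13.27 and 13.25 in bru1. The difference between the 3′ and 5′ actin controls, a sign of RNA integrity, was 3.27, 3.42 and 3.13 in Col and 3.47, 3.47 and 3.58 in bru1. Neither control overlapped between the genotypes, and both gave p = 0.1 in an exact two-sided permutation test, which is the smallest p that 3 arrays against 3 allow. The corresponding differences for GAPDH and ubiquitin overlapped (p = 0.8 and 0.2, exact permutation test). RCA, the Rubisco activase gene and a marker of green tissue, read 13.99, 14.07 and 14.02 in Col and 13.79, 13.91 and 13.83 in bru1. It was 1 of 2 measured nuclear photosynthesis genes, which differed in opposite directions, by -0.19 and 0.15, and neither was called. Of the other tissue markers, the measured meristem marker CLV3 lay below the lower quartile of the arrays, 2 of 6 root hair markers were measured, and those of the epidermis, root tip and vasculature were not among the named genes. Of the root hair markers, the expansin gene EXPA18 read 4.86, 5.03 and 5.23 in Col and 6.14, 5.96 and 5.93 in bru1 and was higher in bru1 by 0.98 ± 0.24 (SE) without overlap (limma adjusted p = 0.0103), not called without replicate 1 of Col, and by 0.88 in controls and 1.08 at 52 h. The other, EXPA7, overlapped between genotypes and differed by 0.39 ± 0.24 (SE) (limma adjusted p = 0.334). The part of root hair cells in the results below was not tested.

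At 4 h, 1466 probe sets were higher and 1582 lower in bru1 at an adjusted p under 0.05 (limma, Benjamini-Hochberg over all 22746), which is 6.45% and 6.96% of those tested. A change of at least 2-fold was seen for 376 of the higher and 163 of the lower ones, 1.65% and 0.717% of those tested. The median difference over all probe sets was -0.02. Leaving out single arrays gave between 864 and 1636 higher calls and between 793 and 1687 lower calls, with the fewest higher calls without replicate 1 of Col and the fewest lower calls without replicate 3 of bru1. Counts also fell by over 1.5 times in both directions without replicate 3 of Col (942 higher and 884 lower) and without replicate 1 of bru1 (954 and 1010). The 3 bru1 arrays lay entirely above the 3 Col arrays for 12.4% of probe sets and entirely below them for 17.3%.

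**Figure D1:**
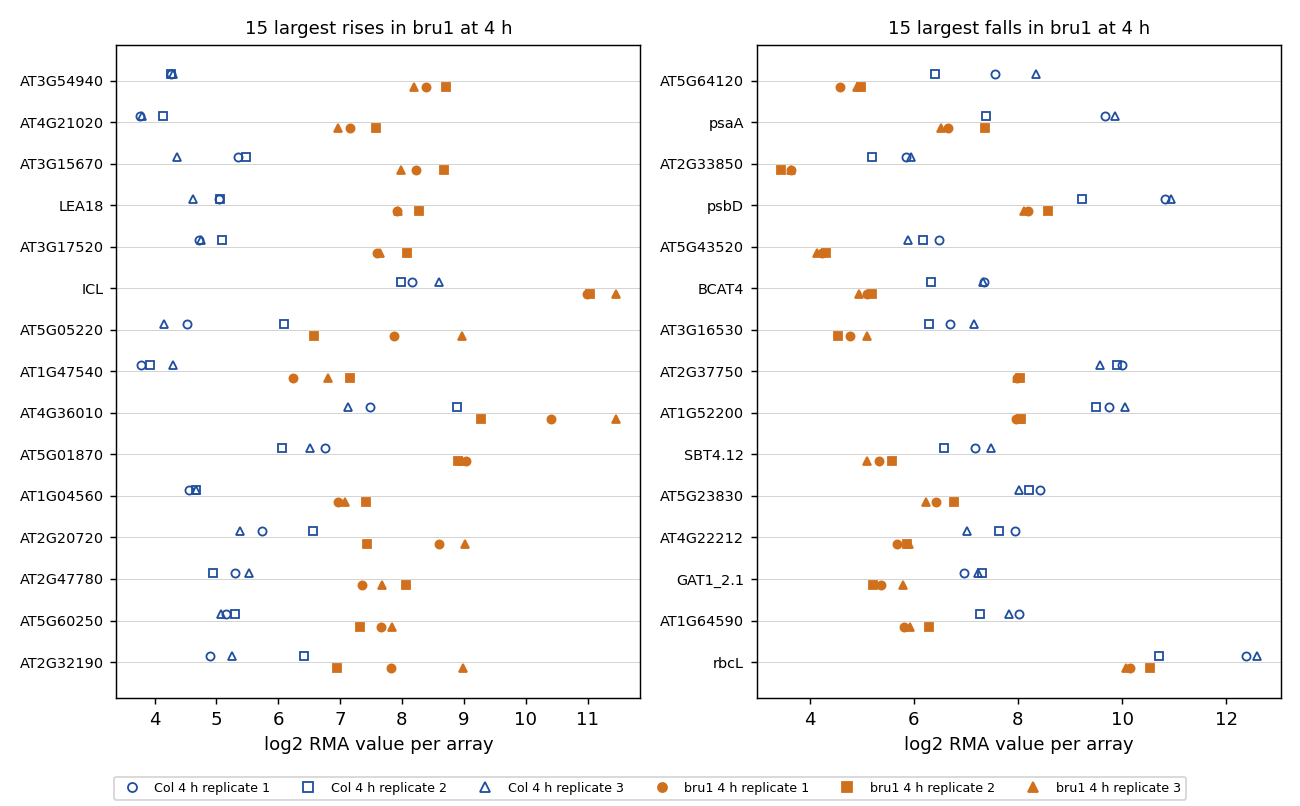
Log2 RMA values on each of the 6 arrays taken 4 h after acclimation, for the 15 genes with the largest rises (left) and the 15 with the largest falls (right) in bru1, open blue symbols for Col and filled orange symbols for bru1, with the shape giving the replicate. AT3G54940 leads the rises at 8.19 to 8.72 in bru1 against 4.26 to 4.30 in Col, and for AT5G05220, AT4G36010, psaA and rbcL replicate 2 of Col (open square) lies nearest to bru1.

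The largest rises in bru1 included a protease gene, AT3G54940, genes of LEA proteins and ICL. Late embryogenesis abundant (LEA) proteins protect cell structures during drying and normally accumulate in maturing seeds, and isocitrate lyase serves the glyoxylate cycle that turns seed oil into sugar. AT3G54940, a papain-type cysteine protease gene, read 4.26, 4.27 and 4.30 in Col and 8.40, 8.72 and 8.19 in bru1. The genotypes were far apart and did not overlap, with a difference of at least 4.16 ± 0.18 (SE, a lower bound). The LEA gene AT4G21020 read 3.77, 4.13 and 3.79 in Col and 7.15, 7.59 and 6.96 in bru1. AT3G15670, another LEA gene, read 5.36, 5.49 and 4.37 in Col and 8.23, 8.69 and 7.99 in bru1. LEA18 read 5.04, 5.05 and 4.62 in Col and 7.91, 8.28 and 7.94 in bru1. In all 3 LEA genes every bru1 array was higher than every Col array, and the group means differed by at least 3.34 ± 0.22 (SE, a lower bound), 3.23 ± 0.31 (SE) and 3.14 ± 0.31 (SE) (limma adjusted p = 7.16e-08, 2.07e-06 and 3.04e-06). ICL, the isocitrate lyase gene, read 8.17, 7.99 and 8.60 in Col and 10.99, 11.05 and 11.47 in bru1. Its difference was 2.92 ± 0.39 (SE) (limma adjusted p = 7.06e-05), again without overlap.

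Of 52 LEA genes listed, 36 were measured, and 17 rose and none fell in bru1 at 4 h, against 5.85% of all named genes called higher and 6.65% called lower. Their median difference was 0.46, against -0.03 over all named genes. Leaving out any single 4 h array left 15 to 17 of them called higher. The cold- and dehydration-responsive COR15A and COR15B, which protect chloroplast membranes on freezing, were among them at 1.70 ± 0.33 (SE) and 0.94 ± 0.24 (SE), the latter not called without replicate 2 of Col. On the separate arrays of the untreated controls 10 LEA genes were higher and none lower, against 4.77% and 4.46% of all named genes. At 52 h 13 were higher and 1 lower, against 5.22% and 5.66%. The difference at 4 h exceeded that in controls for 5 LEA genes by a test of the difference itself. Of the 12 arrays left out in turn, omission of replicate 2 of Col 4 h, of bru1 4 h or of the Col controls gave 5 such genes, that of replicate 1 of bru1 4 h gave 2, and each of the other 8 omissions gave 1. Of genes for proteins that coat lipid droplets, 5 of 7 measured were higher and none lower, with a median difference of 1.47, and 3 were called without replicate 3 of Col or of bru1. AT2G47780, a lipid droplet-associated protein gene, read 5.29, 4.95 and 5.52 in Col and 7.35, 8.07 and 7.68 in bru1. The oleosin gene AT3G01570 read 4.46, 4.65 and 4.60 in Col and 5.98, 6.12 and 6.02 in bru1. Neither overlapped between genotypes, with differences of 2.45 ± 0.25 (SE) and 1.47 ± 0.17 (SE). Of 8 measured seed reserve and glyoxylate cycle genes, 3 rose and none fell, ICL among them. In controls 3 of these 8 and 2 of the 7 lipid droplet genes were higher. At 52 h 4 of each list were higher, and none was lower in either condition.

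**Figure D2:**
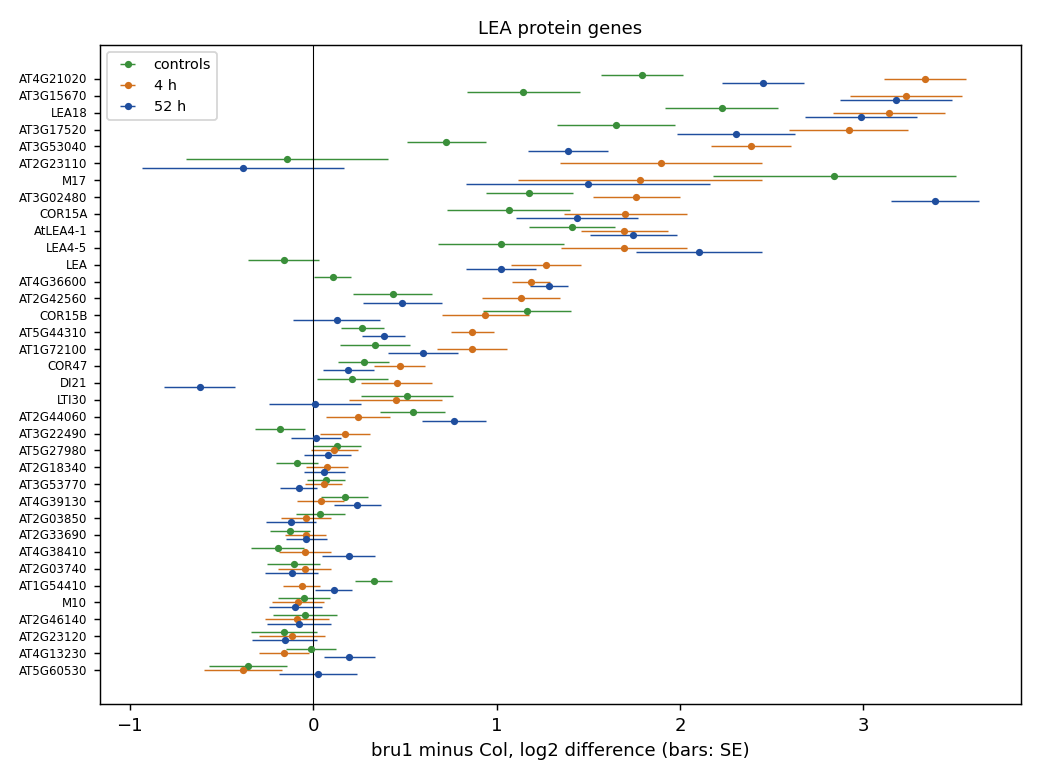
Log2 difference between bru1 and Col, with its standard error, for the 36 measured LEA genes in untreated controls (green), at 4 h (orange) and at 52 h (blue), ordered by the 4 h value. The 5 uppermost genes lie to the right of 0 in all conditions, AT2G23110 below them does so only at 4 h, and AT4G21020, AT3G15670 and LEA18 lie above 3 at 4 h.

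Of 4 measured oxidative stress genes 3 rose and none fell in bru1, with 2 called without replicate 1 of Col or replicate 3 of bru1. AT2G21640, a widely used marker of oxidative stress, read 8.30, 7.87 and 8.23 in Col and 10.42, 10.08 and 10.60 in bru1. It did not overlap and differed by 2.23 ± 0.33 (SE) (limma adjusted p = 0.000206), while the difference in controls was -0.00 and at 52 h -0.55. STZ, a zinc finger repressor induced by salt, cold and reactive oxygen, read 6.64, 8.25 and 6.10 in Col and 8.67, 7.95 and 9.34 in bru1. Here replicate 2 of Col lay above replicate 2 of bru1, and the difference was 1.66 ± 0.40 (SE) (limma adjusted p = 0.0101), not called without replicate 1 or 3 of Col or replicate 3 of bru1. NDB2, an external mitochondrial NAD(P)H dehydrogenase gene, differed by 0.75 ± 0.16 (SE) without overlap. Of 8 measured mitochondrial stress genes 3 rose and none fell, AT2G21640 and NDB2 among them, against 5.85% and 6.65% of all named genes. In controls none of these 8 was called, and at 52 h 4 were lower and none higher. Of 18 measured calmodulin-like calcium sensor genes, 5 rose and none fell, against 5.85% and 6.65% of all named genes. CML37 differed by at least 1.67 ± 0.34 (SE, a lower bound) and CML23 by 1.59 ± 0.32 (SE). Without replicate 1 of either genotype 3 of the 18 were called. In controls 2 of the 18 were higher and none lower, and at 52 h 2 were higher and 2 lower. Of all named genes 4.77% were higher and 4.46% lower in controls, and 5.22% and 5.66% at 52 h. GH3.3, which joins auxin to amino acids, read 7.46, 7.26 and 7.02 in Col and 8.65, 8.69 and 8.30 in bru1 and was higher in bru1 by 1.30 ± 0.19 (SE) without overlap.

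Some lists of heat-responsive genes held no gene past the threshold and others held a few, and the lists were not tested against each other. Differences were positive for all 4 measured memory genes, 9 of 11 small heat shock protein genes and 6 of 7 HSP70 system genes. All 4 measured heat stress memory genes, of 14 listed, missed the threshold. HSA32, the heat-induced protein needed for lasting thermotolerance, read 11.21, 11.31 and 10.85 in Col and 11.44, 11.25 and 11.59 in bru1, and the genotypes overlapped. The peroxisomal small heat shock protein gene AT5G37670 read 10.73, 10.88 and 9.57 in Col and 11.19, 10.64 and 11.87 in bru1, also with overlap. Differences were 0.30 ± 0.23 (SE) for HSA32, 0.84 ± 0.37 (SE) for AT5G37670, 0.30 ± 0.28 (SE) for ATHSP22.0 and 0.15 ± 0.42 (SE) for AT1G53540, with limma adjusted p of 0.443, 0.149, 0.564 and 0.875, and 1 of them, AT5G37670, had an unadjusted p under 0.05. None of 11 measured small heat shock protein genes passed in limma, where 2 were higher and 1 lower at an unadjusted p under 0.05, and 1 was called higher without replicate 2 of Col. Their median difference was 0.19.

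Of 7 measured genes of the HSP70 system, 4 rose and none fell, against 5.85% and 6.65% of all named genes, with a median difference of 0.73. None was called in controls or at 52 h, where the medians were -0.11 and -0.06. The Hsp70 gene AT3G09440 read 11.48, 12.68 and 11.05 in Col and 12.88, 12.25 and 13.36 in bru1. Fes1A, which guards cytosolic Hsp70 from degradation, read 10.01, 11.07 and 9.59 in Col and 11.47, 10.83 and 12.24 in bru1. In both, replicate 2 of Col exceeded replicate 2 of bru1, so the genotypes overlapped despite differences of 1.09 ± 0.30 (SE) and 1.29 ± 0.39 (SE) (limma adjusted p = 0.0218 and 0.0349). None of the 7 remained called without replicate 1 or 3 of Col or without replicate 1 or 3 of bru1, and 5 were called without replicate 2 of either genotype. Among J-domain co-chaperones, which hand clients to Hsp70, AT2G20560 read 9.75, 10.81 and 9.33 in Col and 11.69, 11.21 and 12.62 in bru1. It did not overlap and differed by 1.88 ± 0.35 (SE), in a list where 2 of 13 rose and 1 fell, against 5.85% and 6.65% of all named genes, with 5 rising without replicate 2 of Col, 4 without replicate 2 of bru1 and 1 without any other 4 h array. Of 6 measured unfolded protein response genes, the stress transducers BZIP28 and BZIP60 rose, by 1.25 ± 0.29 (SE) and 0.91 ± 0.22 (SE), and 4 of the 6 were called without replicate 2 of Col but 1 without replicate 1 or 3 of Col or replicate 3 of bru1. The genotypes overlapped for all 6. In no gene of the HSP70, J-domain or unfolded protein response lists did the 4 h difference pass the test against that in controls or at 52 h.

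Transcripts of the plastid genome, which encodes core subunits of the photosystems and of Rubisco, were lower in bru1 for 13 of 69 measured and higher for 2, where 6.65% of all named genes were called lower and 5.85% higher. The photosystem I core gene psaA read 9.67, 7.39 and 9.86 in Col and 6.67, 7.36 and 6.53 in bru1. The photosystem II core gene psbD read 10.82, 9.23 and 10.93 in Col and 8.19, 8.58 and 8.11 in bru1. The Rubisco large subunit gene rbcL read 12.37, 10.70 and 12.58 in Col and 10.16, 10.53 and 10.08 in bru1. In each, replicates 1 and 3 of Col were high and replicate 2 of Col was lower than both, above the bru1 arrays. Differences were -2.12 ± 0.42 (SE) for psaA, -2.03 ± 0.31 (SE) for psbD and -1.63 ± 0.33 (SE) for rbcL (limma adjusted p = 0.00265, 0.000295 and 0.00324). Without replicate 2 of Col 22 plastid transcripts were lower, and without replicate 1 or 3 of Col, or replicate 1 of bru1, 7 were. The median over all 69 was -0.05, and 0.03 without replicate 1 of Col. The 25S rRNA control also placed replicate 2 of Col closest to bru1, followed by replicates 1 and 3, and its part in the plastid values was not tested. In untreated controls 7 plastid transcripts were higher in bru1 and none lower, against 4.77% and 4.46% of all named genes. At 52 h 8 were higher and none lower, against 5.22% and 5.66%.

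**Figure D3:**
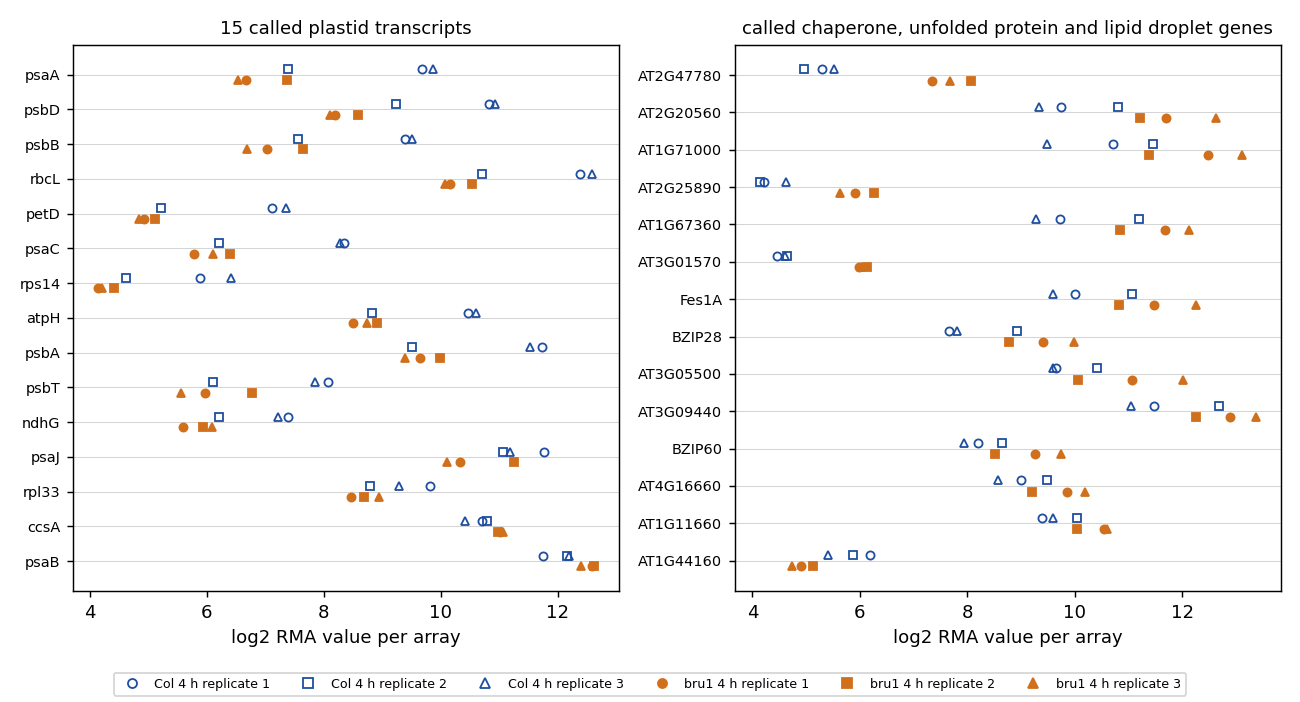
Log2 RMA values on each 4 h array for the 15 plastid transcripts called at 4 h (left) and for the called genes of the HSP70 system, J-domain, unfolded protein response and lipid droplet lists (right), open blue symbols for Col and filled orange for bru1, with the shape giving the replicate. For psaA, replicate 2 of Col (open square) at 7.39 lies beside replicate 2 of bru1 at 7.36, and for AT3G09440 replicate 2 of Col at 12.68 lies above replicate 2 of bru1 at 12.25.

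Class III peroxidases oxidise cell wall phenolics, and 10 of 55 measured genes fell while 5 rose, where 6.65% of all named genes fell and 5.85% rose. For 20 of the 55 both 4 h group means lay at or below 4.39. In controls 13 peroxidase genes were lower and 8 higher, and at 52 h 8 were lower and 9 higher. Of all named genes 4.46% were lower and 4.77% higher in controls, and 5.66% and 5.22% at 52 h. AT5G64120 read 7.57, 6.41 and 8.34 in Col and 4.59, 4.98 and 4.90 in bru1. This was the largest fall among named genes without overlap, at -2.61 ± 0.37 (SE) (limma adjusted p = 0.00012), and the difference was -2.62 in controls. Another peroxidase gene, AT2G37130, read 10.93, 10.71 and 10.64 in Col and 9.02, 9.35 and 9.05 in bru1 and fell by 1.61, and the count of peroxidases that rose was 1 without replicate 1 of Col or replicate 2 of bru1 and 3 without replicate 1 of bru1. Methionine sulfoxide reductases, which repair oxidised methionine, were lower in 3 of 4 measured genes, where MSRB5 fell by 1.28, MSRB9 by 1.16 and MSRB6 by 0.95. In controls 2 of the 4 were lower, and at 52 h 3. ROXY glutaredoxins, small redox proteins of land plants, fell in 5 of 17 and rose in 1, against 6.65% and 5.85% of all named genes, with AT4G15700 at -1.24 ± 0.17 (SE), and 2 fell without replicate 1 of Col or of bru1, 3 without replicate 3 of Col or replicate 2 of bru1. In controls 4 ROXY genes were lower, and at 52 h 7, with none higher in either condition. BCAT4, which starts the chain elongation of methionine towards glucosinolates, read 7.34, 6.33 and 7.33 in Col and 5.11, 5.20 and 4.94 in bru1. It was lower by 1.92 without overlap (limma adjusted p = 0.00831).

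Other genes with large falls were AT5G43520, a gene of the C1-domain family, which read 6.49, 6.18 and 5.88 in Col and 4.24, 4.32 and 4.15 in bru1, and GAT1_2.1, a glutamine amidotransferase-like gene, which read 6.96, 7.31 and 7.23 in Col and 5.37, 5.22 and 5.79 in bru1. Both were clearly separated between genotypes, by -1.95 ± 0.13 (SE, a lower bound) and -1.71 ± 0.16 (SE). Lists with few or no calls included replication and chromatin assembly with 0 of 4 in limma and flavonoid synthesis with 0 of 8 in limma, both also with 0 at an unadjusted p under 0.05, and pseudogenes with 7 higher and 7 lower of 923. Of all named genes 5.85% were called higher and 6.65% lower. However, 795 of the 923 pseudogenes had both 4 h group means at or below 4.39, so few of them could be called. Of 2 measured DNA repair genes, ATMND1, which acts in meiotic recombination, was not called. The other, ATLIG4, the DNA ligase of end joining, read 6.74, 6.59 and 6.74 in Col and 7.55, 7.50 and 7.63 in bru1. It was higher by 0.87 ± 0.11 (SE) without overlap, and by 0.76 in controls and 0.77 at 52 h. ATLIG4 is the expressed gene next to one of the runs of neighbouring genes described below, that from AT5G56980 to AT5G57150.

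Many of the 4 h differences were also present on the other arrays. Of the 1466 probe sets higher at 4 h, 40.5% were also called higher in controls and 41.2% at 52 h, which is 49.8% of those higher in controls and 45.5% of those higher at 52 h. Of the 1582 lower at 4 h, 30.8% were called lower in controls and 28.8% at 52 h, which is 42.0% and 35.4% of the lower calls there. Over all 22746 probe sets 1192 were higher and 1160 lower in controls, and 1328 and 1287 at 52 h. Calls made only at 4 h were 50.3% of the higher and 57.7% of the lower ones. Over all 22746 probe sets the difference at 4 h correlated with that in controls at r = 0.54 and with that at 52 h at r = 0.50. The correlation is a description across probe sets, which are not independent, and the 3 differences come from separate arrays. The calls share one estimate of spread per probe set, so their overlap is in part built in.

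**Figure D4:**
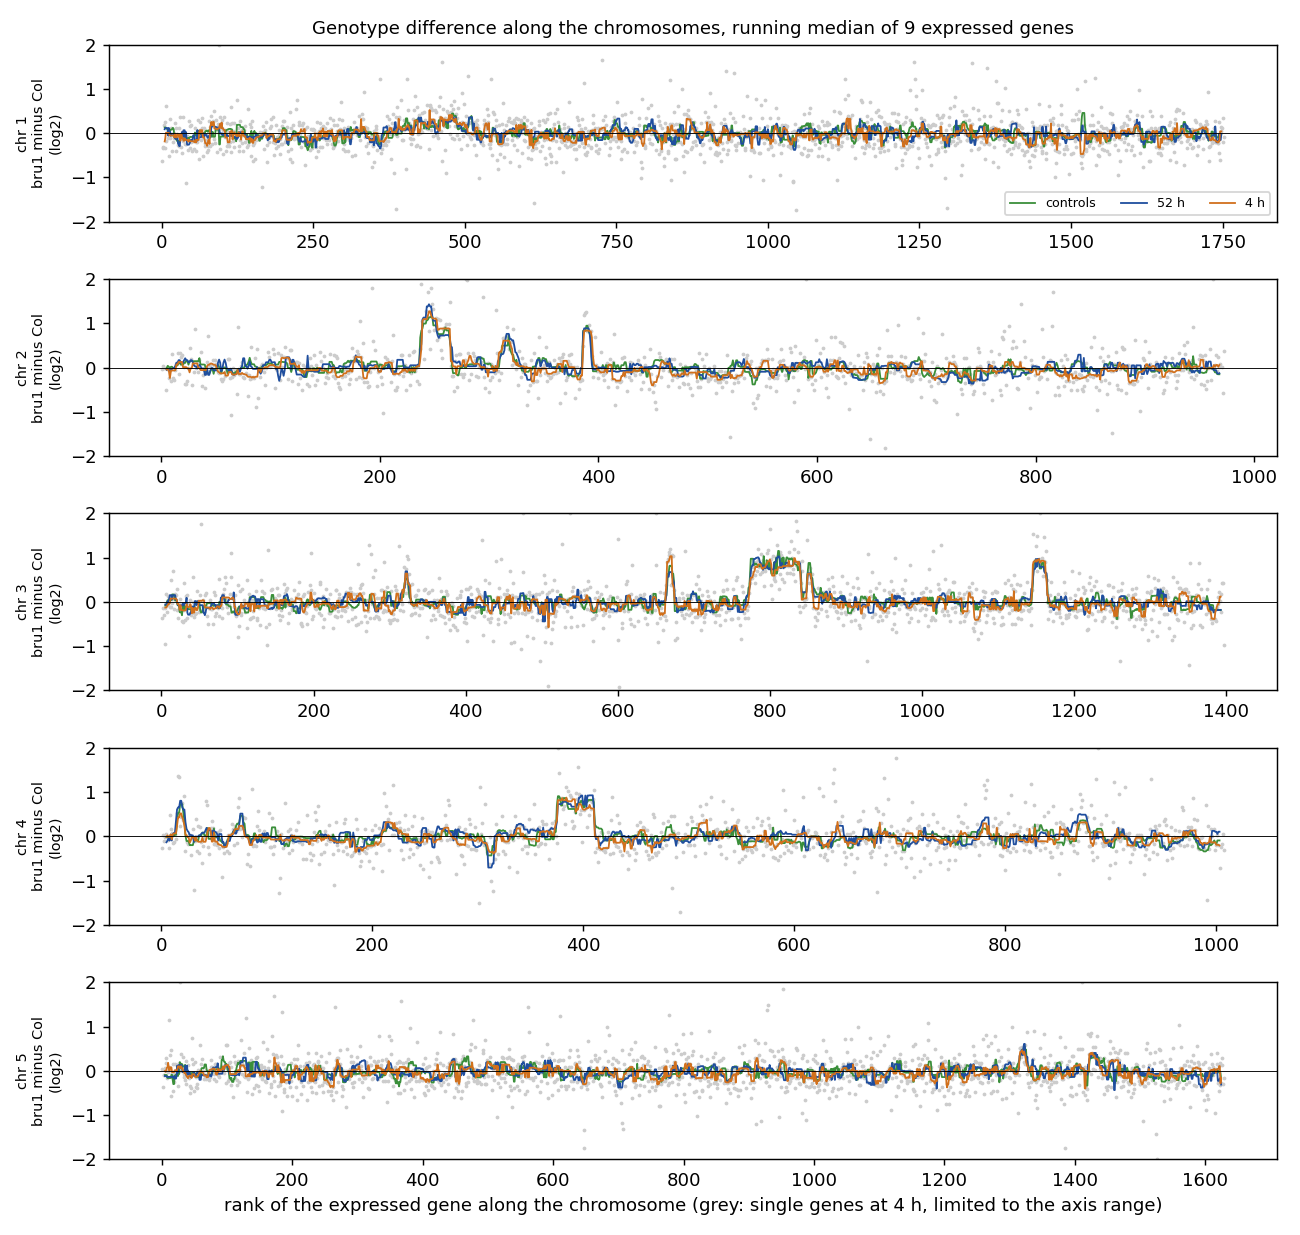
Log2 difference between bru1 and Col for expressed nuclear genes in their order along chromosomes 1 to 5, as running medians over 9 genes in untreated controls (green), at 52 h (blue) and at 4 h (orange), with single genes at 4 h in grey. The medians of the 3 conditions rise together in plateaus on chromosomes 2, 3 and 4, the widest of them with 68 genes at a 4 h median of 0.79.

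Genes that were higher in bru1 lay together along the chromosomes. This was first noticed among the 4 h differences, and runs of neighbours were then delimited on the control and 52 h arrays alone, where the running median over 9 expressed genes of the mean of those 2 differences exceeded 0.4. Genes counted as expressed at a mean log2 value of at least 6 on those arrays, which left 6756 nuclear genes. That mean covered both genotypes, so a gene dim in Col could pass through its bru1 values, as AT3G54940 and AT2G20710 did. The counts inside the runs include such genes, and how many there are was not determined. Window and threshold are 1 of 9 settings tried with the 4 h medians in view, so the 4 h values inside the runs are a description and carry no test. The rule gave 18 runs with 234 genes, 3.46% of the expressed genes. Inside them 177 genes, or 75.6%, were called higher at 4 h and 0 lower by limma, against 6.13% higher and 10.6% lower outside. The runs held 30.7% of all expressed genes called higher at 4 h and 40.0% of those higher by at least 2-fold. The median difference inside was 0.75 at 4 h, 0.79 in controls and 0.75 at 52 h, and outside it was -0.04 at 4 h. Taken array by array, the median inside stood above the Col mean by 0.73, 0.79 and 0.68 on the bru1 arrays, and differed from it by 0.02, -0.02 and -0.00 on the Col arrays, so replicate 2 of Col did not stand apart here.

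The longest run, on chromosome 3 from AT3G26290 to AT3G28460, held 68 expressed genes, of which 58 were called higher and none lower at 4 h, with a median of 0.79. The 5 expressed genes before it had a median of -0.09 and the 5 after it of 0.05. On chromosome 4 the run from AT4G17245 to AT4G18070 had 29 of 36 genes called higher and a median of 0.75. On chromosome 2 the run from AT2G20515 to AT2G21185 had 24 of 29 called higher and a median of 0.99, with medians of -0.08 before it and -0.19 after it. The J-domain gene AT2G20560 and AT2G20720, another of the leading genes, lie in this run. All 19 expressed genes from AT3G54590 to AT3G55080 were called higher, with a median of 0.93, and the protease gene AT3G54940 is among them. In that run the glutathione reductase gene GR differed by 0.95 and TON1B, needed for organising cortical microtubules, by 1.46.

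Shorter runs were AT3G22290 to AT3G22550 with 8 of 10 genes called higher and a median of 1.00, and AT2G26580 to AT2G26810 with 8 of 8 and 0.90. AT2G23690 to AT2G24040 had 8 of 11 and 0.61, AT3G28720 to AT3G29075 had 6 of 8 and 0.64, and AT4G00700 to AT4G00980 had 5 of 7 and 0.52. Other runs were weak at 4 h. AT5G56980 to AT5G57150 had a 4 h median of 0.40, AT5G60930 to AT5G61220 of 0.34 and AT4G35040 to AT4G35410 of 0.31, with 4, 2 and 3 genes called. AT1G19120 to AT1G19200, with 5 genes, had a median of 0.00 and no call by limma. The remaining 5 runs held 1 to 3 genes each, with medians from -0.08 to 0.75. Among them AT1G17960 and AT5G60840 were runs of 1 gene that entered through the running median of their neighbours. AT1G17960 itself differed by -0.11 in controls and -1.95 at 52 h, and AT5G60840 by -0.03 and 0.26. For the opposite sign the same rule gave 4 runs of 1 to 4 genes, the longest from AT4G15640 to AT4G15690 with a 4 h median of -0.47 and 2 of 4 genes called lower, which include a ROXY glutaredoxin. DNA was not measured, and the cause of the runs was not tested.

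The genotype difference at 4 h was then tested against the difference in the other conditions. Against the controls 40 probe sets had a higher and 38 a lower difference at 4 h, 0.176% and 0.167% of those tested (limma, adjusted p under 0.05). Against 52 h there were 85 and 46, 0.374% and 0.202%. These counts rest on single arrays: leaving out one of them gave between 1 and 285 higher and between 6 and 129 lower against controls, the fewest without replicate 1 of Col 4 h and the most without replicate 2 of bru1 4 h (higher) or of Col 4 h (lower). Against 52 h omissions gave between 49 and 373 higher and between 17 and 250 lower, the most without replicate 2 of bru1 4 h (higher) or of Col 52 h (lower). AT2G32150, a haloacid dehalogenase-like hydrolase gene, read 9.59, 9.68 and 9.29 in Col and 7.81, 8.28 and 7.77 in bru1. It was lower in bru1 at 4 h by 1.57, without overlap, and differed by 0.56 in controls. The change of the difference was -2.13 ± 0.26 (SE), and it passed the test whichever of the 12 arrays was left out, as did those of GAT1_2.1, AT5G43520 and AT2G44380. For AT2G21640 the change against controls was 2.24 ± 0.47 (SE) and lost the call in 10 of 12 omissions, while against 52 h it was 2.79 ± 0.47 (SE) and kept it in all 12. STZ changed by 3.22 ± 0.56 (SE) and GH3.3 by 2.00 ± 0.27 (SE) against 52 h, both called under all 12 omissions. AT4G22490, a lipid transfer protein-like gene, was lower in bru1 by 1.14 at 4 h and differed by -4.36 at 52 h.

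**Figure D5:**
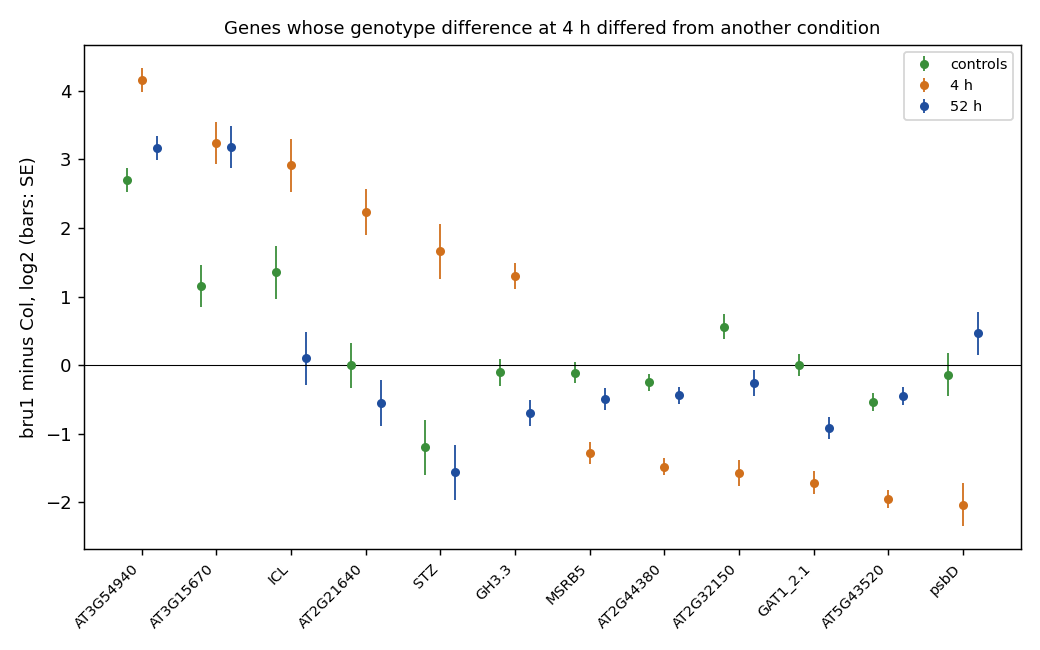
Log2 difference between bru1 and Col, with its standard error, in untreated controls (green), at 4 h (orange) and at 52 h (blue) for 12 genes whose difference at 4 h differed from that in another condition. AT2G21640 stands at 2.23 at 4 h and at 0.00 or below in the other conditions, and AT2G32150 stands at -1.57 at 4 h and at 0.56 in controls.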

How the data were processed

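RNA of 3 biological replicates per genotype and condition was hybridised to Affymetrix ATH1 arrays, per the labels' protocols. The authors deposited log2 values per probe set. The submitters' processing notes name RMA, with a version not given in the sources used here. RMA corrects background, equalises the arrays' distributions and summarises probes, so a change of most genes in one direction would be scaled out. Precision is limited by the number of arrays. Values were tested as deposited, without a filter, after leaving out 64 AFFX control probe sets. All 18 arrays entered one limma fit (limma 3.58.1, R 4.3.3) with a mean per group, 12 residual degrees of freedom and Benjamini-Hochberg adjustment over 22746 probe sets, and the fit was tested on simulated data. A difference was given as a lower bound where a group mean lay at or below 4.39, the highest lower quartile of any array. Genes were named from the platform annotation updated through RefSeq (TAIR10.1), with the probe set of highest mean where a gene had several. Named genes were the 15 largest rises and falls without overlap, the 8 largest each way per tested change of the difference, the memory genes and up to 5 per list. GR and TON1B fall outside this rule and were chosen after their values were seen.

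Members and lists were chosen with earlier results of these data known. The lists of LEA proteins, class III peroxidases, J-domain co-chaperones, mitochondrial stress genes, calmodulin-like calcium sensors, ROXY glutaredoxins, methionine sulfoxide reductases and lipid droplet proteins were drawn up or redrawn after the 4 h values had been seen, and their counts are descriptions. The runs of neighbouring genes and their settings were likewise chosen after seeing the data. Alternatives were the 6 or 12 compared arrays alone, a replicate block, a filter on dim probe sets, renewed quantile normalisation, a trended robust prior, array weights and omission of each array.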

Additional observations from a re-analysis of the deposited data

Results flagged for a closer look

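The genotype difference at 4 h differed from that in another condition, by a limma test of the change itself at an adjusted p under 0.05, for the following named genes, with values as the log2 difference at 4 h minus that in the other condition. Against controls the difference was higher at 4 h for STZ (2.86), AT2G21640 (2.24), AT3G15670 (2.08), AT1G04560 (1.76), AT3G53040 (1.66), AT1G31335 (1.63), AT4G21020 (1.54), AT3G54940 (1.46), GH3.3 (1.41) and NDB2 (1.08). Against controls the difference was lower at 4 h for MSRB5 (-1.17), AT3G15630 (-1.21), AT2G44380 (-1.23), RR16 (-1.32), AT4G08780 (-1.38), AT5G43520 (-1.41), AT1G72900 (-1.59), GAT1_2.1 (-1.71) and AT2G32150 (-2.13). Against 52 h the difference was higher at 4 h for AT2G04050 (4.13), AT4G22490 (3.22), STZ (3.22), AT2G18190 (3.04), ICL (2.81), AT2G21640 (2.79), AT2G41730 (2.63), AT1G17960 (2.44), CML37 (2.25), AT2G33850 (2.06), GH3.3 (2.00), AT1G31335 (1.79) and AT5G01870 (1.54). Against 52 h the difference was lower at 4 h for AT2G44380 (-1.04), AT3G15630 (-1.13), AT2G32150 (-1.31), AT5G43520 (-1.49), AT3G02480 (-1.63), AT2G43590 (-1.66), ndhG (-1.73), AT2G04460 (-1.83), OSM34 (-1.98), AT3G58550 (-2.12) and psbD (-2.50). When each of the 12 arrays of a comparison was left out in turn, 4 of these 19 genes kept the call against controls in every omission, and 14 of 24 did so against 52 h.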

How the results depend on the processing

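The numbers of probe sets called higher and lower at 4 h, 1466 and 1582, were 2329 and 2475 with array weights and ranged from 864 to 1636 and from 793 to 1687 when single arrays were left out. The other planned settings stayed within 1.5 times of them, and not counting the 234 expressed genes inside the runs gave 1289 higher calls. The runs span 373 measured genes at any level, so dimmer ones stayed in that count, and unnamed probe sets were not placed. The tested changes of the difference depended far more on the settings. Against controls, 40 and 38 became 116 and 111 with only the 12 arrays of the 2 conditions, 433 and 340 with array weights, and 1 to 285 and 6 to 129 with single arrays left out. Against 52 h, 85 and 46 became 40 and 14 with only the 12 arrays, 1486 and 1322 with array weights, and 49 to 373 and 17 to 250 with single arrays left out. The cause was not tested. Arrays of the same number did not deviate together at 4 h (r = -0.04, -0.31 and -0.20 for replicates 1 to 3). Deviations of the 3 arrays within a group depend on each other, so these values cannot settle whether equal numbers mark paired samples. Other matchings did deviate together. Replicate 2 of Col with replicate 3 of bru1 gave r = 0.23 in controls, 0.31 at 4 h and 0.55 at 52 h. Replicate 3 of Col with replicate 2 of bru1 gave 0.14, 0.17 and 0.44. A shared batch under another matching was not tested, and a block by replicate number does not account for one. With the replicate block the 4 h counts were 1341 and 1421, those against controls 10 and 18, and those against 52 h 66 and 28. For the runs, 8 other settings chosen after seeing the data were computed for each sign. At a threshold of 0.5 the median at 4 h inside was 0.82 with windows of 7, 9 and 11 genes, and the windows of 9 and 11 gave 11 runs instead of 18. For the opposite sign, a window of 11 genes at 0.4 gave 1 gene with a 4 h difference of 0.61, where 9 genes gave a median of -0.22 over 8 genes in 4 runs. A window of 7 genes gave 14 such runs with 27 genes at 0.35, a median of -0.31 and 7 genes called lower, and 10 runs with 17 genes at 0.4. Signal limits the rest, since a group mean at or below the lower quartile of the arrays gives a difference as a bound.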
